A study of Mus musculus with 11 samples.

Results

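The ligands of the bone morphogenetic protein (BMP) and transforming growth factor beta (TGF-β) superfamily and their antagonists were examined in peak lists of H3K27me3, the trimethylation of lysine 27 of histone H3, from the embryonic mouse forebrain. The 38 genes were taken by name. Of these, 31 encode ligands by protein family (9 BMPs, 10 growth differentiation factors including myostatin, 5 activin and inhibin subunits, Nodal with the Lefty proteins, 3 TGF-βs and anti-Müllerian hormone) and 7 encode antagonists. They were set beside all 21755 protein-coding genes on chromosomes 1 to 19 and X.

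The mark was profiled by CUT&Tag: an antibody against it tethers a transposase, which cuts and tags the DNA nearby. Nuclei came from wild-type C57BL/6J embryos of both sexes, from the ganglionic eminences, medial (MGE), caudal (CGE) and lateral (LGE), which produce GABAergic neurons, and from the cortex (CTX), which produces glutamatergic neurons. The study's text places the experiment at E12.5, while the protocol in the labels names E12.5 and E14.5 without an age for each sample, and it speaks of mixing equal numbers of nuclei across regions although each sample carries 1 region. There were 2 samples of MGE and 3 each of CGE, LGE and CTX, of which 2 carry the same replicate number, so that each region has 2 biological replicates, every one from pooled embryos, and reads of a region's samples were merged by the authors before peaks were called. Each region is therefore 1 list without a replicate value, no test between regions was possible, and all differences below are descriptions of 4 lists. The lists of MGE, CGE, LGE and CTX held 15384, 19196, 16851 and 18785 peaks, covering 24.5, 32.9, 26.4 and 31.2 Mb. Per the study's methods, sequencing depth was unequal, in total highest for CGE and lowest for MGE. In dissected tissue, a mark in fewer cells and a weaker mark in each cell cannot be told apart. Window coverage, defined below, of the cortical progenitor genes was 100% (MGE), 56.2% (CGE), 31.4% (LGE) and 29.8% (CTX) at *Lhx2*, 92.9%, 92.5%, 63.5% and 51.9% at *Neurog2* and 100%, 100%, 98.9% and 87.1% at *Emx1*. *Dlx2*, a gene of the eminences, had 16.4%, 44.8%, 41.4% and 41.6%, and *Nkx2-1*, the defining gene of the MGE, had 100% in every list, MGE included.

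H3K27me3 is deposited by Polycomb repressive complex 2 and is found over developmental genes that are silent or poised in a tissue. BMP and TGF-β ligands are secreted dimers that bind pairs of serine/threonine kinase receptors and act through SMAD proteins. In the forebrain, BMPs from the dorsal midline pattern the cortex, and antagonists limit the range of the signal by holding ligands outside the cell or by blocking receptors and SMADs within it.

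Promoter sequences are shown for the 2 genes with the widest peaks among those marked in every list (*Gdf7* and *Bmp4*), for the antagonist with the highest coverage (*Grem1*), for the gene with the largest difference between the lists as deposited (*Smad6*) and for a ligand without a peak (*Bmp10*). Each runs 5′ to 3′ on the strand of the gene, from 250 bases before to 50 bases from the RefSeq start (GRCm38.p6), and capitals mark every CG dinucleotide, the DNA feature of CpG islands. The positions are chr12:8301905-8302204 (minus strand) for *Gdf7*, chr14:46390620-46390919 (minus) for *Bmp4*, chr2:113758599-113758898 (minus) for *Grem1*, chr9:64022010-64022309 (minus) for *Smad6* and chr6:87428744-87429043 (plus) for *Bmp10*.
Gdf7: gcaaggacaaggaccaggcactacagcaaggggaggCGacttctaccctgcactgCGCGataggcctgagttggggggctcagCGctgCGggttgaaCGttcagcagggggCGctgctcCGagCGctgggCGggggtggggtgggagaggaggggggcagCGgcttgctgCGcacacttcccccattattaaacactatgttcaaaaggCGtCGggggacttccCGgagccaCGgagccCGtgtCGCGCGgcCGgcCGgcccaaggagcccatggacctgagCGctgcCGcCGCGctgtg
Bmp4: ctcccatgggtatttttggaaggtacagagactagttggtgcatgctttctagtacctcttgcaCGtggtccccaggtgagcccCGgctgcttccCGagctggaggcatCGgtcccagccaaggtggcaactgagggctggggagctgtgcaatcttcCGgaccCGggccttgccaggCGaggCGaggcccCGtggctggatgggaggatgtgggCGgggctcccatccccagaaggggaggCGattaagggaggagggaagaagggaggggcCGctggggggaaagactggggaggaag
Grem1: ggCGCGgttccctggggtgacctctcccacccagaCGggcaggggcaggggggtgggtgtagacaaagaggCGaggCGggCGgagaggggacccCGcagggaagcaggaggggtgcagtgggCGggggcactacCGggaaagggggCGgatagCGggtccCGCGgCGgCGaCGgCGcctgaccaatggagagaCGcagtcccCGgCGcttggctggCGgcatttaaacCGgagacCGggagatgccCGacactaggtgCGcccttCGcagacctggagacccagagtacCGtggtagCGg
Smad6: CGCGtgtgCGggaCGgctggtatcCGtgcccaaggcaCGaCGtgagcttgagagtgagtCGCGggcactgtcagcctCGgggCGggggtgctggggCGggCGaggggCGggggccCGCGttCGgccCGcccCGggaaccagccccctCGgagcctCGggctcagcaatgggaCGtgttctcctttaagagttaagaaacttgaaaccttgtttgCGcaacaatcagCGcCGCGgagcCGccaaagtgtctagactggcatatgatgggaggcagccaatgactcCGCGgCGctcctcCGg
Bmp10: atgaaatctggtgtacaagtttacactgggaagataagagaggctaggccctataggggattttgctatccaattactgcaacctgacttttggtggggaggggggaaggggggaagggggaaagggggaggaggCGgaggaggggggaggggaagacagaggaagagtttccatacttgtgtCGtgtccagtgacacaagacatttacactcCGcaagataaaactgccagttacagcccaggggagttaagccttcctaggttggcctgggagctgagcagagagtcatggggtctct

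These sequences held 26 CG dinucleotides in *Gdf7*, 12 in *Bmp4*, 28 in *Grem1*, 31 in *Smad6* and 3 in *Bmp10*. Among 32851 RefSeq promoters of the same length, the median was 7, and the share with at least as many was 16.9% for *Gdf7*, 39.6% for *Bmp4*, 14.2% for *Grem1*, 10.6% for *Smad6* and 76.7% for *Bmp10*. Peaks covered the stretches of *Gdf7* and *Grem1* entirely in all lists and that of *Bmp4* entirely in MGE, CGE and CTX and to 84.3% in LGE. The *Smad6* stretch was covered entirely in CGE and not at all in MGE, LGE or CTX, and the *Bmp10* stretch was covered in no list. Of the 38 genes, 23 had an entry in the promoter table.

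For each gene, the share of bases under peaks was taken over a window of 2 kb either side of the annotated 5′ end (4000 bases) and over the gene body. A window covered to at least 50% was called marked. H3K27me3 lay over many of these genes in each region: of 38, the marked genes numbered 16 (MGE), 18 (CGE), 16 (LGE) and 16 (CTX), against 9.76%, 12.3%, 10.2% and 10.9% of all protein-coding genes. In all 4 lists together, 14 genes (36.8%) were marked, against 7.54% of all genes. A further 5 were marked in some lists only (*Bmp2*, *Bmp7*, *Gdf10*, *Bambi* and *Smad6*), against 1527 of the 21755 genes. Another 10 had covered bases without reaching 50% in any list, against 5339 of the 21755, a similar share. The other 9 (23.7%) had no covered base in the window, against 60.9% of all genes. At least 1 covered base was present in every list at 26 genes (68.4%), against 23.4% of all genes.

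**Figure D1:**
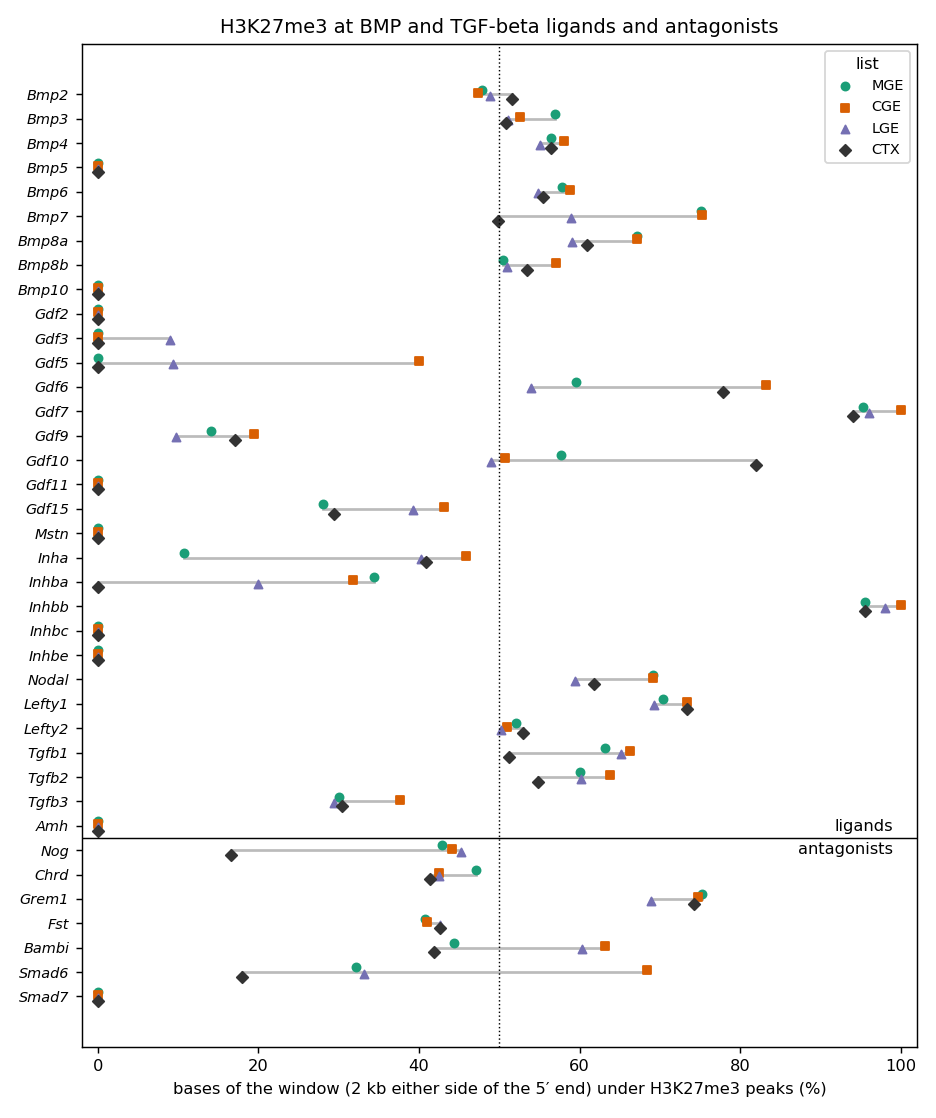
Percentage of the 4000-base window around the 5′ end under H3K27me3 peaks, 1 line per gene and 1 point per merged list, with ligands above and antagonists below. *Gdf7* and *Inhbb* lie at 94.0% or above in every list, *Smad6* spreads from 17.9% to 68.4%, and 9 genes lie at 0.

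A peak in the window was frequent in both classes, and fewer of the antagonists reached 50%. Of the ligands, 13 of 31 (41.9%) were marked in all 4 lists and 20 (64.5%) had a covered base in all 4. Of the antagonists, 1 of 7 (14.3%) was marked in all 4 and 6 (85.7%) had a covered base in all 4. The median window coverage was 47.8%, 47.3%, 48.8% and 49.8% for ligands and 42.8%, 44.1%, 42.6% and 41.4% for antagonists in MGE, CGE, LGE and CTX, while over all genes it was 0 in each list. The means ran the other way in MGE (37.2% for ligands, 40.4% for antagonists), CGE (41.7% and 47.7%) and LGE (36.7% and 41.8%), but not in CTX (36.8% and 33.5%). The difference between the classes depended on the class of a few genes, on the 50% limit and on the 5′ ends or window used. *Lefty1*, *Lefty2*, *Inha* and *Bmp3* have the fold of a ligand but act as inhibitors. With these counted as antagonists, 4 of 11 antagonists and 10 of 27 ligands were marked in all 4 lists. With a limit of 40%, chosen after the values were seen, 4 of 7 antagonists and 16 of 31 ligands were, beside 11.1% of all genes. When all annotated 5′ ends were considered, 3 of 7 antagonists and 14 of 31 ligands were marked in all 4 lists. The difference of the medians, ligands minus antagonists and averaged over the lists, was then 0.512 points in place of 5.69. Over the gene body it was -6.92.

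**Figure D2:**
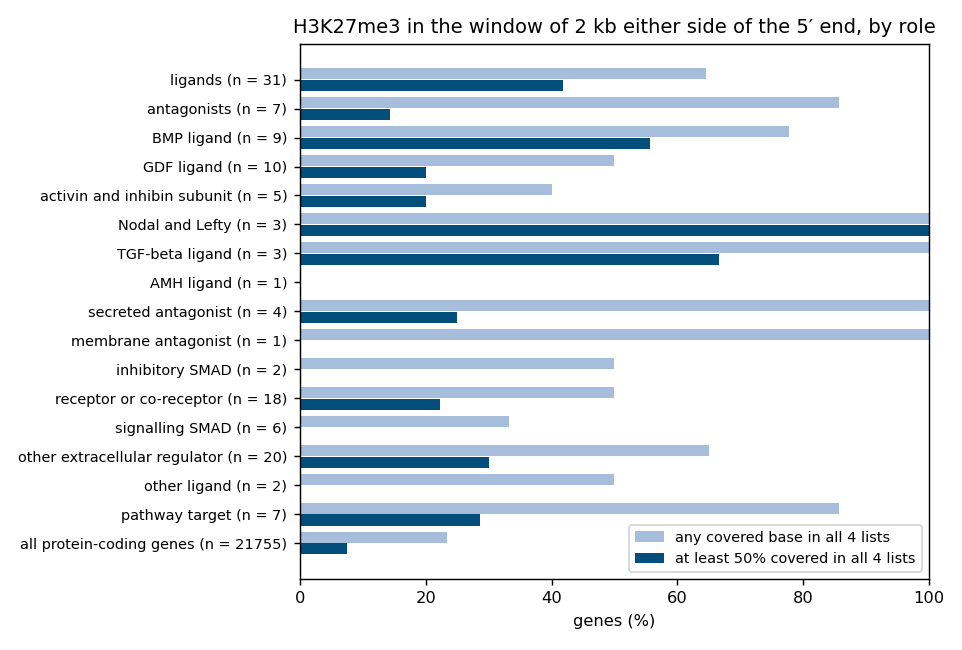
Percentage of genes in each role with any covered base in the window in all 4 lists (light bars) and with at least 50% of the window covered in all 4 lists (dark bars), with the number of genes in brackets. Nodal and the Lefty proteins reach 100% for both, and the antagonists have long light bars and short dark ones, beside 23.4% and 7.54% of all protein-coding genes.

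The 2 most completely covered ligand genes were *Gdf7* and *Inhbb*. *Gdf7*, a ligand made by the roof plate of the developing neural tube, had window coverage of 95.3% (MGE), 100% (CGE), 96.0% (LGE) and 94.0% (CTX), and its gene body was covered over its full length in every list. The widest peak, chr12:8297012-8304101 in CGE, was 7090 bases and ran from 2147 bases upstream to 4942 bases downstream of the 5′ end. *Inhbb*, the activin βB subunit, had window coverage of 95.6% (MGE), 100% (CGE), 98.0% (LGE) and 95.6% (CTX). Its widest peak, chr1:119419422-119424306 in CGE, was 4885 bases. Both genes were thus covered on either side of the 5′ end in all regions. The next highest value of a ligand was 83.2%, at *Gdf6* in CGE.

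Among the BMPs, *Bmp3*, *Bmp4*, *Bmp6*, *Bmp8a* and *Bmp8b* were marked in all 4 lists. *Bmp4*, a dorsal midline signal of the telencephalon, had window coverage of 56.4% (MGE), 58.1% (CGE), 55.1% (LGE) and 56.4% (CTX). Its peak in CGE, chr14:46385343-46390993, was 5651 bases and began 324 bases upstream of the 5′ end, so that the downstream half-window was covered entirely in every list and the upstream one to between 10.2% and 16.2%. *Bmp2*, a close relative of *Bmp4*, had 47.8%, 47.3%, 48.8% and 51.6% in the same order and crossed 50% only in CTX. Its peak began 88 bases downstream of the 5′ end in MGE, 109 in CGE and 47 in LGE, and 66 bases upstream in CTX, so the gene was under a peak of similar extent in each region. *Bmp3* ranged from 50.8% to 56.9%, *Bmp6* from 54.8% to 58.8%, *Bmp8a* from 59.1% to 67.2% and *Bmp8b* from 50.4% to 57.0%. *Bmp8a* and *Bmp8b* are paralogs with 5′ ends 238 kb apart.

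*Nodal* and its inhibitors *Lefty1* and *Lefty2*, which act in early axis formation, were all marked in every list. *Nodal* had window coverage of 69.1% (MGE), 69.1% (CGE), 59.4% (LGE) and 61.8% (CTX). *Lefty1* ranged from 69.3% to 73.4% and *Lefty2*, whose 5′ end lies 41.9 kb away, from 50.2% to 53.0%. The TGF-β genes *Tgfb1* and *Tgfb2* were also marked in all 4. *Tgfb1* had 63.1% (MGE), 66.3% (CGE), 65.2% (LGE) and 51.2% (CTX), and *Tgfb2* had 60.1%, 63.8%, 60.2% and 54.8%. *Tgfb3* had a peak in each list without being marked, from 29.4% to 37.6%, and that peak began between 495 and 825 bases downstream of the 5′ end.

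Of the 10 growth differentiation factors, *Gdf7* and *Gdf6* were marked in all 4 lists. *Gdf15*, a stress-induced cytokine, ranged from 28.0% to 43.1%. *Gdf9*, an oocyte factor, ranged from 9.70% to 19.4%, and in MGE, CGE and CTX its peak also held the 5′ end of *Uqcrq*. *Gdf3*, active in the early embryo, had covered bases only in LGE (8.97%), under a peak of 359 bases with a −log10 q of 1.48, at percentile 8.37 of its list.

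No covered base was found in window or gene body in any list at 7 genes (18.4%), against 53.8% of all genes. These were *Bmp5*, *Bmp10*, *Gdf2*, *Gdf11*, *Mstn*, *Inhbc* and *Amh*. All 7 encode ligands, as do 31 of the 38 genes. *Bmp10* is known as a heart ligand, *Gdf2* encodes the liver-derived BMP9, *Mstn* restrains muscle growth and *Amh* acts in the male reproductive tract. *Bmp5* was far from any peak, its 5′ end lying between 149214 and 150047 bases from the nearest one, and *Mstn* lay between 107671 and 108044 bases away. *Amh*, in contrast, was 2699 to 2929 bases from a peak and *Gdf11*, a close relative of *Mstn*, 3944 to 4015 bases. *Gdf2* and *Gdf10* are neighbours 3055 bases apart on chromosome 14, and *Gdf10* was covered to between 49.0% and 82.0%. *Inhbe* and *Smad7* had no covered base in the window but held peaks in the gene body. Coverage of the *Inhbe* body was 0 (MGE), 14.6% (CGE), 17.7% (LGE) and 0 (CTX), and that of *Smad7* was 5.07%, 11.7%, 15.9% and 0.

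The antagonists fell into 3 kinds. The secreted antagonists *Nog*, *Chrd*, *Grem1* and *Fst* bind ligands outside the cell, *Bambi* is a receptor-like membrane protein without a kinase domain, and *Smad6* and *Smad7* block signalling inside the cell. *Grem1*, encoding gremlin, was the antagonist marked in all lists, with window coverage of 75.3% (MGE), 74.7% (CGE), 68.9% (LGE) and 74.3% (CTX). Its peaks were 3068 to 3293 bases wide and ran over the 5′ end in every list.

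*Nog*, *Chrd* and *Fst* shared another arrangement, in which the peak began just inside the gene and the gene 5′ end itself was free. *Nog*, encoding noggin, had a peak beginning 289 (MGE), 234 (CGE), 192 (LGE) and 317 (CTX) bases downstream of the 5′ end. For *Chrd*, encoding chordin, the distances were 117, 301, 301 and 344 bases, and for *Fst*, encoding follistatin, an activin-binding protein, 367, 360, 297 and 297. None of the 3 had a covered base in the 2 kb upstream in any list. Around the gene 5′ end, their window coverage could therefore not pass 50%. It was 47.1%, 42.5%, 42.5% and 41.4% for *Chrd* and 40.8%, 41.0%, 42.6% and 42.6% for *Fst*. *Nog* has 1 annotated 5′ end, *Chrd* has 5 and *Fst* has 6. When all annotated 5′ ends were considered, 3 antagonists were marked in all 4 lists in place of 1, *Chrd* and *Fst* besides *Grem1*. The *Chrd* peak also held the 5′ end of *Thpo* in every list. *Bambi* had 44.3% (MGE), 63.2% (CGE), 60.3% (LGE) and 41.9% (CTX), with the 5′ end under the peak in all 4.

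Of the genes with a covered base in all lists, the 5′ end was under a peak in every list in 15 of 20 ligands (75.0%) and 2 of 6 antagonists (33.3%), beside 62.1% of all such genes. It was free in every list in 3 ligands (*Gdf15*, *Inha* and *Tgfb3*) and 3 antagonists, beside 15.2% of all such genes. Coverage leaned to the downstream side. Among the genes touched in a list, downstream coverage was above upstream coverage in 96.3% (MGE), 89.3% (CGE), 93.1% (LGE) and 88.5% (CTX), against 70.5%, 67.7%, 69.6% and 68.8% of all touched genes. Among the touched genes, the median downstream coverage was 100% for ligands in every list and 83.6%, 86.6%, 85.1% and 73.4% for antagonists. For all touched genes it was 49.1%, 57.2%, 48.9% and 45.9%. No test was made of these shares, which come from few genes.

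**Figure D3:**
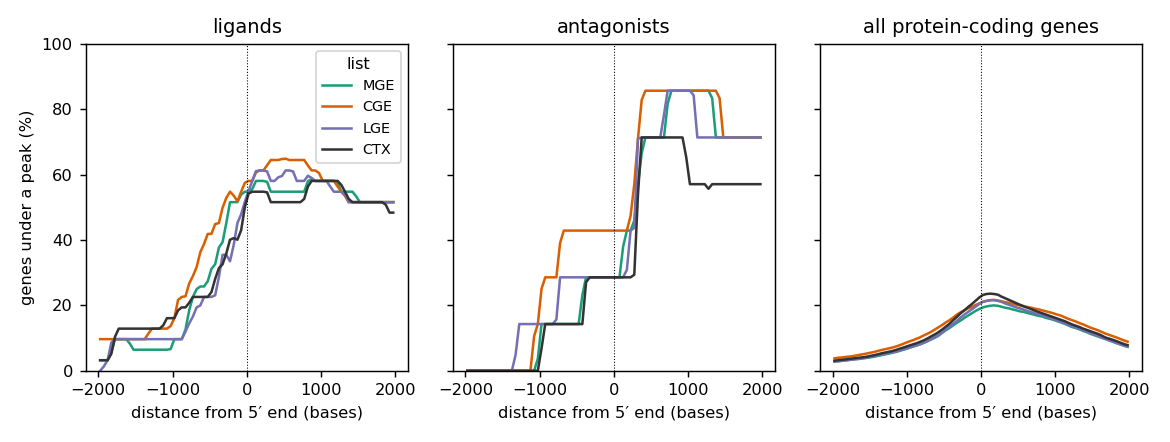
Percentage of ligand and antagonist genes under a peak, by distance from the 5′ end along the gene's strand in bins of 50 bases, with 1 line per merged list. At 25 bases downstream of the 5′ end, 54.2% to 58.1% of ligands and 28.6% to 42.9% of antagonists were covered. The antagonists reached 71.4% to 85.7% farther inside the gene. Of all protein-coding genes, 19.4% (MGE), 21.1% (CGE) and 21.1% (LGE) were covered at 25 bases. The 5′ end itself was under a peak at 4174 (MGE), 4536 (CGE), 4517 (LGE) and 4954 (CTX) of the 21755 genes.

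The peaks themselves differed in shape. For each gene and list the strongest peak in the window was taken, and its fold enrichment over local background is the authors' value. *Gdf7* peaks of 6605 to 7090 bases had folds of 1.72 to 1.90, and *Bmp4* peaks of 5457 to 5651 bases had folds of 2.09 to 2.36, both low for their lists, whereas the *Bmp8b* peaks of 2016 to 2279 bases had folds of 4.52 to 5.20. The median peak width was 3114, 3102, 2796 and 2918 bases for ligands and 2694, 2619, 2625 and 2153 bases for antagonists in MGE, CGE, LGE and CTX, against 1248, 1445, 1252 and 1334 bases for all peaks of each list. The median percentile of the q-value within the list was 91.5, 91.3, 89.9 and 91.0 for ligands. For antagonists it was 91.0, 91.9, 89.3 and 78.3, lowest in CTX. These peaks were chosen as the strongest of their window by q-value, whereas the lists include every peak. The same choice was not made over all genes, so these widths and percentiles cannot be read as particular to these genes. In the gene bodies, exons made up 15.5% of all bases of these genes and 33.6% to 35.3% of their covered bases. For all genes the shares were 9.07% and 25.8% to 28.6%.

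**Figure D4:**
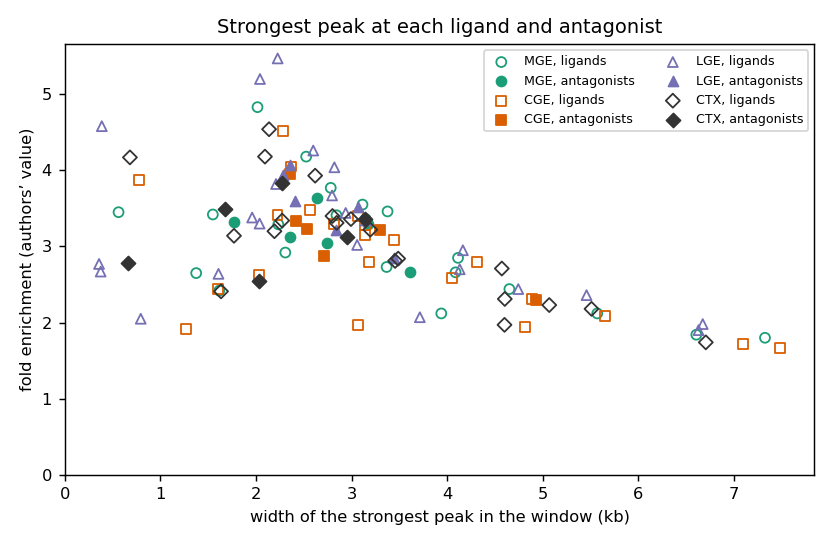
Fold enrichment, as given by the authors, against the width in kb of the strongest peak in the window, with 1 point per gene and list. The widest peaks, at *Bmp7* and *Gdf7*, have folds near 2 or below, and the highest folds belong to narrower peaks.

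A CpG-rich 5′ end (GC of at least 55% and an observed over expected CpG ratio of at least 0.6 over 1 kb) was present at 20 of the 38 genes, 13 of 31 ligands (41.9%) and 7 of 7 antagonists, beside 38.7% of all genes. Of these 20, 18 (90.0%) had a covered base in all lists, against 34.0% of all CpG-rich genes, and the exceptions were *Gdf11* and *Smad7*. By class, these were 12 of 13 ligands (92.3%) and 6 of 7 antagonists (85.7%). Of the same genes, 7 ligands (53.8%) and 1 antagonist (14.3%) were marked in all 4 lists, against 11.9% of all CpG-rich genes. Of the 18 without such a 5′ end, 8 (44.4%) had a covered base in all lists, against 16.8% of all such genes. *Nodal*, *Lefty1*, *Lefty2*, *Bmp3*, *Bmp4* and *Tgfb2* were marked in all 4 lists without a CpG-rich 5′ end.

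Between regions, most of the covered bases of the 38 windows were shared, while single genes differed. The bases covered in both of a pair of lists, as a share of those covered in either, ranged from 79.8% (CGE and CTX) to 86.8% (MGE and LGE), against 68.0% to 75.0% for all genes, a description without a test. Window coverage differed by at least 25 points between the highest and the lowest list at 8 genes (21.1%), against 9.0% of all genes: *Bmp7*, *Gdf5*, *Gdf6*, *Gdf10*, *Inha*, *Inhba*, *Nog* and *Smad6*. Genes without a covered base cannot differ, and among genes with a covered base in any list the shares were 8 of 29 (27.6%) and 1958 of 8507 (23.0%). Of 29 genes with any difference, CGE, which has the most peaks and the greatest depth, was alone the highest at 17, and LGE was alone the lowest at 11 and CTX at 10. The same counts were not made over all genes. Peaks covered 37.7% (MGE), 42.8% (CGE), 37.6% (LGE) and 36.2% (CTX) of the window bases of the 38 genes. For all genes the shares were 11.7%, 13.6%, 12.1% and 12.9%, also highest in CGE but lowest in MGE.

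*Smad6*, an inhibitory SMAD of the BMP branch, had the largest difference, 50.5 points, in the lists as deposited. With peaks less than 3 kb apart joined, *Inha* (89.3 points) and *Inhba* (62.1) had larger ones. Its window coverage was 32.1% (MGE), 68.4% (CGE), 33.1% (LGE) and 17.9% (CTX). The peak in CGE, chr9:64017868-64022796, ran over the 5′ end, that in MGE began 714 bases downstream, that in LGE 676 and that in CTX 1285. The −log10 q was 60.4 (MGE), 82.6 (CGE), 103 (LGE) and 4.41 (CTX), and the fold was 2.67, 2.30, 2.85 and 2.54, so that the CTX peak was the shortest (2031 bases) and had the lowest −log10 q but not the lowest fold. *Smad3*, a signalling SMAD with its 5′ end 264 kb away, had 89.9% (MGE), 93.2% (CGE), 91.0% (LGE) and 38.3% (CTX), the lowest also in CTX. Its strongest peaks had a −log10 q of 2.92 (MGE), 11.7 (CGE), 8.96 (LGE) and 2.61 (CTX). In MGE and CTX the *Smad3* window thus held no peak with q under 0.001.

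*Nog* had 42.8%, 44.1% and 45.2% in MGE, CGE and LGE and 16.6% in CTX, where the peak shortened from 2360, 2415 and 2283 bases to 662 bases. Its gene body followed, at 82.9%, 86.2%, 88.7% and 39.1%. *Bmp7* had 75.1% (MGE), 75.3% (CGE), 58.9% (LGE) and 49.8% (CTX), and the difference lay upstream of the 5′ end, where coverage was 50.1%, 50.6%, 17.8% and 0. *Inhba*, the activin βA subunit, had 34.4% (MGE), 31.8% (CGE), 19.9% (LGE) and no covered base (CTX). With all annotated 5′ ends of *Inhba* considered, CTX had 21.5% and the range fell to 14.5 points. With only peaks of q under 0.001, *Inhba* had 34.4%, 31.8%, 0 and 0, so that LGE equalled CTX. *Nog* and *Bmp7* thus had their lowest coverage in CTX. *Inhba* had so at its gene 5′ end in the lists as deposited, but not over all its annotated 5′ ends. The gene bodies of all 3 held peaks in CTX.

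Other differences did not set CTX below the eminences. *Gdf6*, a ligand of eye and skeletal development, had 59.6% (MGE), 83.2% (CGE), 53.9% (LGE) and 77.9% (CTX), with upstream coverage of 19.2%, 66.3%, 7.80% and 55.8%. *Gdf10*, a relative of *Bmp3*, had 57.7%, 50.7%, 49.0% and 82.0%, highest in CTX, where 1 peak of 4571 bases stood. When peaks less than 3 kb apart were joined, *Gdf10* had 86.9%, 80.6%, 78.1% and 82.0%, a range of 8.83 points.

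*Gdf5*, a joint ligand, had 0 (MGE), 40.0% (CGE), 9.40% (LGE) and 0 (CTX), resting on peaks with a −log10 q of 1.49 and 1.26. *Inha*, the inhibin α subunit, had 10.7%, 45.8%, 40.2% and 40.9%, all of it upstream, and in CGE, LGE and CTX the peak also held the 5′ end of *Obsl1*. With only peaks of q under 0.001, both genes had no covered base in any window. With lists of equal number, *Gdf5* had none either, and *Inha* had 10.7%, 0, 40.2% and 40.9%, so that CGE turned from highest to lowest. With joined peaks, *Inha* had 10.7%, 100%, 100% and 40.9%. In contrast, *Bmp7*, *Gdf6*, *Inhba*, *Nog* and *Smad6* kept a difference of at least 25 points with that limit, with joined peaks, and with lists of equal number or equal covered bases.

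A comparison of CTX with every eminence, chosen after the values were seen, found CTX at least 10 points below each of MGE, CGE and LGE at 4 genes, *Inhba*, *Tgfb1*, *Nog* and *Smad6*, against 2.05% of all genes. *Inhba* was not among them when all its annotated 5′ ends were considered, with 21.5% in CTX and 19.9% in LGE. Nor was it with only peaks of q under 0.001, where LGE and CTX both had 0. CTX was at least 10 points above each at *Gdf10*, against 3.94% of all genes.

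**Figure D5:**
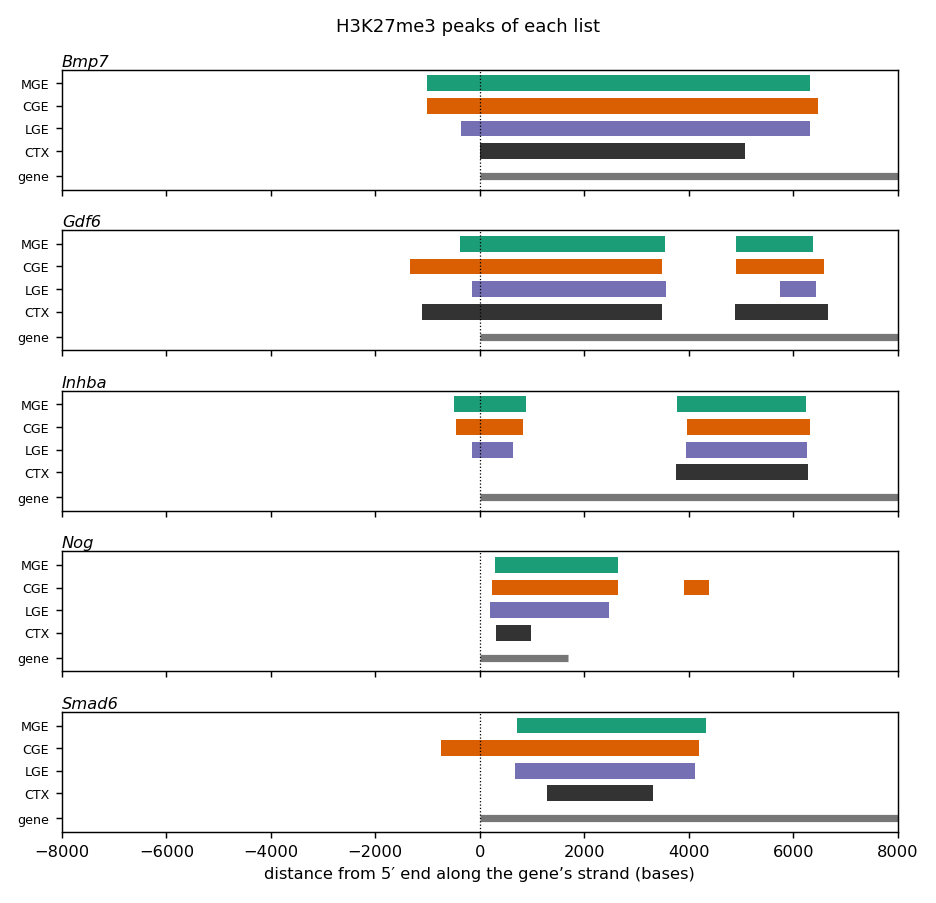
Extent of the H3K27me3 peaks of each merged list at the 5 genes whose difference of at least 25 points held in lists filtered, joined or made equal in size, by distance in bases from the 5′ end (dotted line), with the gene body in grey. The *Nog* and *Smad6* peaks are shortest in CTX, *Inhba* has no peak over its gene 5′ end in CTX, and *Bmp7* loses its upstream part there.

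Beyond the ligands and antagonists, 53 other genes of the pathway were listed by role. In all 4 lists 12 were marked (22.6%, against 7.54% of all genes) and 31 had a covered base (58.5%, against 23.4%). Of 18 receptors and co-receptors, *Acvrl1*, *Tgfbr2*, *Tdgf1* and *Cfc1* were marked in all lists, and of 6 signalling SMADs none was. Of 20 other extracellular regulators, *Chrdl2*, *Bmper*, *Nbl1*, *Vwc2*, *Ltbp2* and *Tll1* were marked in all lists, and of 7 target genes, *Id1* and *Msx3*. A difference of at least 50 points between lists was seen at *Smad3* (values above), *Ltbp3* (73.8), *Ltbp4* (56.1) and *Id4* (53.6), against 1.53% of all genes. *Id4*, a target of BMP signalling, had 64.9% (MGE), 30.7% (CGE), 25.2% (LGE) and 11.3% (CTX). Its strongest peaks had a −log10 q of 3.66, 3.19, 3.01 and 1.77, so that of CTX fell short of q under 0.001. *Ltbp3*, which binds latent TGF-β, had 23.1%, 73.8%, 43.4% and 0. Where present, the strongest peaks of *Ltbp3* and *Ltbp4* passed that limit. How these differences depend on the settings was not tested.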

How the data were processed

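H3K27me3 CUT&Tag was carried out on 11 samples, 2 of MGE and 3 each of CGE, LGE and CTX, grouped by the region in their labels. A replicate number is shared by 2 of the 3 samples in each of CGE, LGE and CTX, and the study's text gives 2 biological replicates per region. The authors aligned reads to GRCm38 (mm10) with Bowtie2, removed blacklisted regions and PCR duplicates (Picard), merged the samples of a region (SAMtools) and called broad peaks with MACS, whose version and control are not given in the sources used here. The deposited lists hold, for each peak, a fold enrichment (a ratio to local background), a score, and the −log10 of a p-value and a q-value, all by the authors. All q-values were under 0.1, and the score and p-value were not used. The study's methods state unequal depths per library, in total highest for CGE and lowest for MGE, which could change the number of weak peaks and the q-values. The lists carry no read counts for a peak.

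Coverage was computed with Python 3.11.15 and numpy 2.4.6 (scipy 1.17.1, matplotlib 3.10.9) and checked on simulated peaks. Windows reached 2 kb either side of the 5′ end of GENCODE M21 genes. Gene body, exon and CpG values used the same annotation and the GRCm38 genome, and promoter sequences came from RefSeq (GRCm38.p6). The members, the gene lists and the limits were chosen with earlier results of these data known. Details are given for genes marked in all 4 lists, genes differing by at least 25 points, all antagonists, genes without a covered base and, of other pathway genes, those marked in all lists or differing by at least 50 points. Alternatives were a q limit of 0.001, joined peaks, lists of equal number or covered bases, other windows, any covered base, all annotated 5′ ends and another class for inhibitory ligands.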

Additional observations from a re-analysis of the deposited data

How the results depend on the processing

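No paired analysis was possible because each region is 1 merged list, and for the same reason no replicate could be left out. A q limit of 0.001, joining of peaks less than 3 kb apart, and lists of equal number or equal covered bases left the counts of marked genes and of genes with a difference between lists within 1.5 times the values given. All annotated 5′ ends also left ligands marked in all lists (14), the counts per list and the genes with a difference (9) within 1.5 times, and the upstream 2 kb left the last at 8. The genes behind these counts were not all the same. *Inhba* dropped out with all annotated 5′ ends (14.5 points). In the upstream 2 kb, *Nog* (no covered base) and *Inhba* (24.2% in MGE to 0 in CTX) dropped out. *Bambi* (19.8% in CTX to 65.8% in LGE) and *Tgfb1* (2.35% in CTX to 32.6% in CGE) came in there. Other values moved. With the 2 kb upstream alone, ligands marked in all 4 lists numbered 2 in place of 13 and antagonists 0 in place of 1, and genes marked per list numbered 4 (MGE), 6 (CGE), 4 (LGE) and 5 (CTX). With the gene body, the counts were 4 ligands and 0 antagonists, 5, 5, 5 and 4 per list, and 1 gene with a difference of at least 25 points in place of 8. With any covered base, they were 20 ligands and 6 antagonists, 27, 28, 29 and 26 per list, and 3 genes covered in some lists only. Over all genes, the shares with a covered base were 29.1%, 30.3%, 30.2% and 32.5% per list. Of the 21755 genes, 8507 had a covered base in at least 1 list and 5099 in every list. The counts for the upstream 2 kb, the gene body and all annotated 5′ ends were not made over all genes. Antagonists marked in all lists numbered 3 with all annotated 5′ ends, 4 with the inhibitory ligands counted as antagonists and 4 with a limit of 40%, which was chosen after seeing the data. The difference in median window coverage, ligands minus antagonists, was 5.69 points, fell to 0.512 with all annotated 5′ ends and turned to -6.92 with the gene body and -8.85 with the inhibitory ligands as antagonists. The cause was not tested. Mean coverage was between 40% and 50% at 3 genes and between 50% and 60% at 8, so the count of marked genes rests on values near the limit.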
